A study of Arabidopsis thaliana with 20 samples.

Results

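The chloroplast genome of Arabidopsis encodes subunits of the NADH dehydrogenase-like (NDH) complex, a thylakoid membrane complex related to mitochondrial complex I. The complex passes electrons from ferredoxin to plastoquinone and works in cyclic electron flow around photosystem I, alongside a second route that needs the protein PGR5. Its membrane arm is built around NdhA to NdhG and its stromal arm around NdhH to NdhK, while the remaining subunits are encoded in the nucleus and imported. Plastid genes are transcribed by a bacterial-type RNA polymerase that needs nuclear-encoded sigma factors and by a nuclear-encoded phage-type polymerase, and many are read as polycistronic units. The 10 members described here are ndhJ (ATCG00420), ndhK (ATCG00430), ndhC (ATCG00440), ndhF (ATCG01010), ndhD (ATCG01050), ndhE (ATCG01070), ndhG (ATCG01080), ndhI (ATCG01090), ndhA (ATCG01100) and ndhH (ATCG01110), taken by their identifiers, and they are 10 of 30613 features in the expression table. A further subunit gene, ndhB, has 2 entries in the RefSeq gene table and is not among the 10. Features taken as its copies are given further below, and statements on the 10 do not cover them.

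The RNA was the chromatin-associated fraction of 10-day-old whole seedlings in the Col-0 background, sequenced with and without immunoprecipitation of RNA carrying N6-methyladenosine (m6A). The groups were an overexpression (OE) line of the human m6A demethylase ALKBH5 without its C-terminal disordered region (del-cIDR), an OE line of the full-length enzyme (FL), an OE line of del-cIDR with the H204A change (inactive del-cIDR), an OE line of full-length enzyme with H204A (inactive FL), and untransformed Col-0. Each group had 2 input libraries and 2 immunoprecipitated libraries, 20 in all, and the values below come from the 10 input libraries unless stated. Each ALKBH5 group is 1 line by its column names, and the promoter is not given in the sources used here, so form, activity and line cannot be told apart. Nothing says whether the 2 libraries of a group came from separate plants, so p-values measure only the spread between these libraries, which may be technical.

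Facts of the whole table bear on every plastid value. The values are a deposited signal whose ERCC spike-in sum is nearly equal across libraries, so depth is unknown and the total is free to differ. Relative to Col-0 the median of all features moved by 0.61 (log2) in del-cIDR, 0.84 in FL, 0.38 in inactive del-cIDR and 0.29 in inactive FL. Plastid features, with the 10 members among them, took 32.3% to 32.5% of all signal in del-cIDR, 21.4% to 21.8% in FL, 36.7% to 36.8% in inactive del-cIDR, 26.5% to 27.2% in inactive FL and 30.4% to 31.0% in Col-0. In whole seedlings fewer green cells, less RNA per cell and less plastid RNA kept in the chromatin-associated fraction cannot be told apart. The summed level of 3 mesophyll markers (RBCS1A, LHCB1.3 and RCA), all above 0, was 161067 to 165365 in del-cIDR, 99531 to 100237 in FL, 159101 to 160000 in inactive del-cIDR, 102468 to 103885 in inactive FL and 94049 to 94498 in Col-0. LHCB1.3 alone, at 75212 to 127082 over the libraries, made up most of this mesophyll sum. The sum of 2 shoot epidermis markers (ATML1 and CER5) was 4789 to 5058 in del-cIDR, 3190 to 3405 in FL, 3943 to 3959 in inactive del-cIDR, 3126 to 3440 in inactive FL and 3589 to 3646 in Col-0. The sum of 2 seed storage genes (CRA1 and CRU3) was 906 to 943 in del-cIDR, 453 to 459 in FL, 606 to 668 in inactive del-cIDR, 461 to 516 in inactive FL and 582 to 597 in Col-0. Both of these sums and the mesophyll sum were, like the NDH transcripts below, highest in del-cIDR and second highest in inactive del-cIDR. Unlike those transcripts, the mesophyll sum was lowest in Col-0. The sum of 4 root markers (PYK10, EXPA7, COBL9 and CASP1) was 9119 to 9672 in del-cIDR, 8727 to 8790 in FL, 12543 to 12810 in inactive del-cIDR, 7890 to 8244 in inactive FL and 7585 to 7647 in Col-0. Nearly all of this root sum was PYK10, at 7491 to 12714 over the libraries, beside 47.0 to 126 for COBL9. It therefore says little about the other root markers. The dividing-cell marker CYCB1;1 had 76.9 to 87.3 in del-cIDR, 86.4 to 94.9 in FL, 63.6 to 68.8 in inactive del-cIDR, 43.8 to 56.7 in inactive FL and 31.6 to 35.5 in Col-0. The part of these marker differences in the results was not tested. Markers of shoot and root were all above 0, but so was every feature measured, so this does not test the labelled tissue. The root markers EXPA7 (12.7 to 43.7) and CASP1 (17.3 to 48.2) lay below the median of all feature means, 75.9.

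All 10 NDH transcripts were highest in del-cIDR, and 9 of 10 had the same order of group means below it, with inactive del-cIDR next, then Col-0, inactive FL and FL. The exception was ndhE, where inactive FL stood above Col-0. The ratio of the highest to the lowest group mean ran from 1.62 for ndhJ to 2.27 for ndhF. The members were abundant, with library values of 1053 to 17632 against a median of 75.9 over the means of all features. The coefficient of variation of the 2 libraries of a group had a median of 2.58% over the 50 combinations of member and group, with a highest value of 11.6%.

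**Figure D1:**
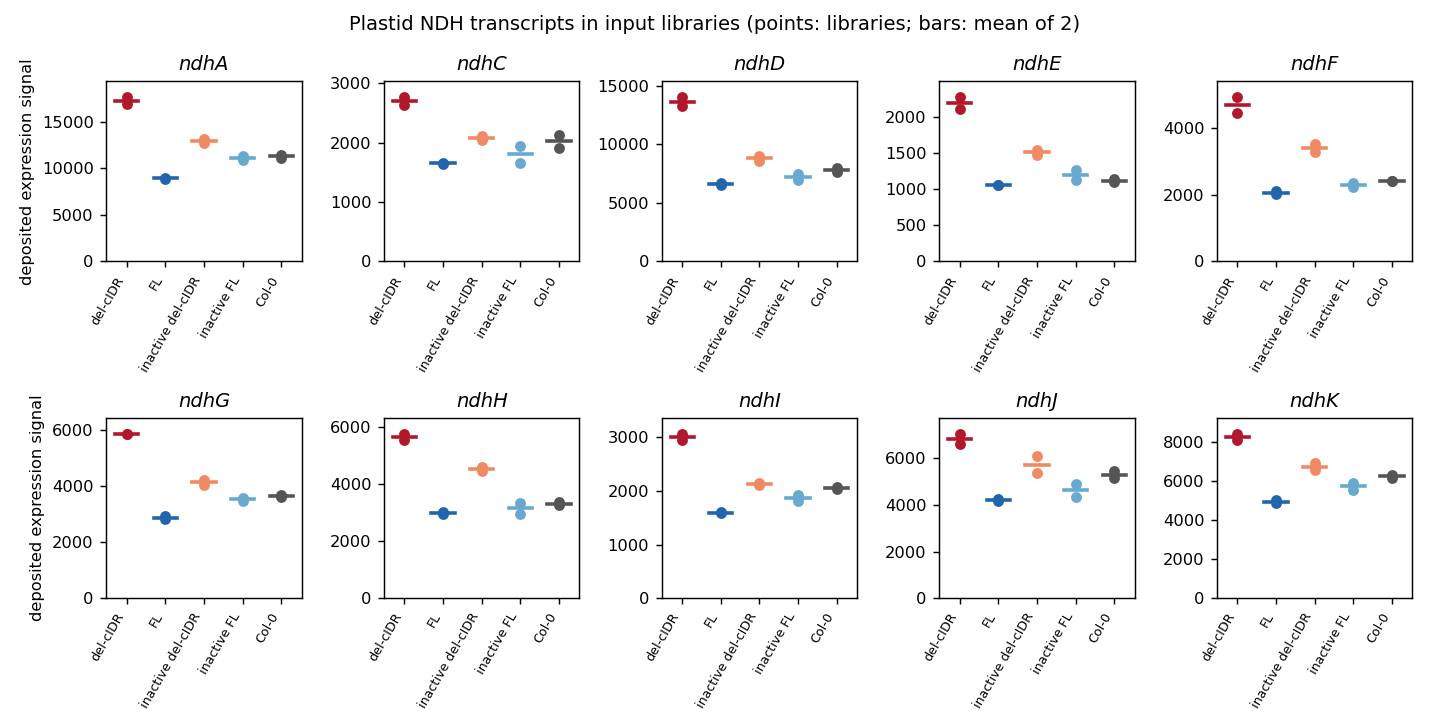
Deposited expression signal (vertical axis, linear, from 0) of each NDH transcript in the 10 input libraries. Points are libraries and bars are means of the 2 libraries of a group; the del-cIDR libraries lie above all others in every panel.

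Among the membrane-arm genes, ndhF encodes the large antiporter-like subunit at the far end of the arm. Its signal was 4469 and 4927 in del-cIDR, 2105 and 2036 in FL, 3277 and 3515 in inactive del-cIDR, 2231 and 2354 in inactive FL, and 2411 and 2410 in Col-0. No 2 groups overlapped. The share of all features without overlap was not computed, so overlap is only described here and for the genes below. A second antiporter-like subunit comes from ndhD, which had 13306 and 14014 in del-cIDR, 6735 and 6499 in FL, 8618 and 9005 in inactive del-cIDR, 6964 and 7486 in inactive FL, and 7678 and 7968 in Col-0. Its groups did not overlap either. The small membrane subunit gene ndhE had 2104 and 2271 in del-cIDR, 1054 and 1053 in FL, 1548 and 1478 in inactive del-cIDR, 1130 and 1266 in inactive FL, and 1135 and 1105 in Col-0. For ndhE, only inactive FL and Col-0 overlapped.

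Next to ndhE lies ndhG, another membrane subunit gene. It had 5848 and 5840 in del-cIDR, 2913 and 2834 in FL, 4210 and 4039 in inactive del-cIDR, 3479 and 3565 in inactive FL, and 3674 and 3616 in Col-0, with no overlap of any 2 groups. The product of ndhA links the membrane arm to the stromal arm. Its transcript had the highest values of the 10, at 16884 and 17632 in del-cIDR, 8862 and 8986 in FL, 12719 and 13143 in inactive del-cIDR, 10896 and 11346 in inactive FL, and 11160 and 11415 in Col-0. Only its inactive FL and Col-0 libraries overlapped. The sixth membrane gene, ndhC, had 2638 and 2758 in del-cIDR, 1659 and 1644 in FL, 2102 and 2040 in inactive del-cIDR, 1651 and 1946 in inactive FL, and 2135 and 1909 in Col-0. Its order below del-cIDR was loose, since inactive FL overlapped both FL and Col-0, and Col-0 overlapped inactive del-cIDR.

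Of the stromal-arm genes, ndhH encodes a subunit near the quinone-binding end. Its signal was 5567 and 5764 in del-cIDR, 3025 and 2949 in FL, 4461 and 4607 in inactive del-cIDR, 2956 and 3359 in inactive FL, and 3374 and 3264 in Col-0. Inactive FL overlapped both FL and Col-0. The iron-sulphur subunit gene ndhI had 3059 and 2943 in del-cIDR, 1583 and 1606 in FL, 2113 and 2151 in inactive del-cIDR, 1813 and 1932 in inactive FL, and 2076 and 2036 in Col-0, with no overlap. The other iron-sulphur subunit comes from ndhK, which had 8095 and 8390 in del-cIDR, 4997 and 4887 in FL, 6540 and 6908 in inactive del-cIDR, 5542 and 5914 in inactive FL, and 6299 and 6169 in Col-0. Its groups did not overlap. The peripheral stromal subunit gene ndhJ had 6616 and 7035 in del-cIDR, 4169 and 4243 in FL, 5370 and 6078 in inactive del-cIDR, 4348 and 4887 in inactive FL, and 5145 and 5456 in Col-0. In ndhJ, inactive del-cIDR overlapped Col-0.

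Divided by the gene lengths of the RefSeq table, which for ndhA include its intron, the order of levels changed. The signal per kilobase in del-cIDR averaged 14308 ± 621 for ndhJ and 2096 ± 145 for ndhF, against 11112 ± 461 for ndhJ and 1076 ± 0.386 for ndhF in Col-0 (SD, n = 2 each). The neighbours ndhJ, ndhK and ndhC share a unit, as do ndhH, ndhA, ndhI, ndhG, ndhE and ndhD, while ndhF stands alone among the members. The annotated ndhF gene overlaps ycf1 by 39 bases, and whether counting used strand is not given in the sources used here.

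The del-cIDR line was compared with Col-0 to ask what the enzyme without its disordered region goes with. All 10 NDH transcripts rose, with a median log2 fold change of 0.65. At the same threshold 65.5% of all features were called higher and 1.85% lower, with a median of 0.56 over all features, so a called rise was common in the table at large. The 122 other plastid features had a median of 0.66, with 108 called higher and 7 lower. The log2 fold change was 0.96 ± 0.06 for ndhE and 0.96 ± 0.05 for ndhF (SE, limma, adjusted p = 3.43e-20 and 2.58e-23). It was 0.36 ± 0.05 for ndhJ (limma, adjusted p = 1.11e-08), the lowest of the 10. The library groups did not overlap in any of the 10. The share of all features without overlap was not computed, so this count is not read as particular to the members.

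Within the 10 the size of this difference differed between the transcription units. The 3 genes of the ndhC-ndhK-ndhJ unit had log2 fold changes of 0.36 to 0.42, the 6 of the ndhH to ndhD unit had 0.54 to 0.96, and these ranges did not overlap. The median was 0.74 over the 6 membrane-arm genes and 0.47 over the 4 stromal-arm genes, whose ranges did overlap. Differences between members were not themselves tested.

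When each library was centred on the median of the other plastid features, 4 members were higher and 3 lower in del-cIDR than in Col-0. On this scale ndhE and ndhF were both higher by 0.33 (log2; limma, adjusted p = 1.03e-06 and 6.86e-08), ndhD by 0.17 and ndhH by 0.14. The 3 genes of the ndhC-ndhK-ndhJ unit were lower, at -0.26 for ndhJ, -0.23 for ndhK and -0.21 for ndhC. Centring on the median of all features gave 3 higher (ndhE, ndhF and ndhD) and the same 3 lower. These directions therefore hold relative to a chosen set of transcripts, and the rise of all 10 holds on the scale of the deposited values. Here and below, shares of all features called are given only for the deposited scale with the variance trend. Counts under other settings have no such share beside them.

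**Figure D2:**
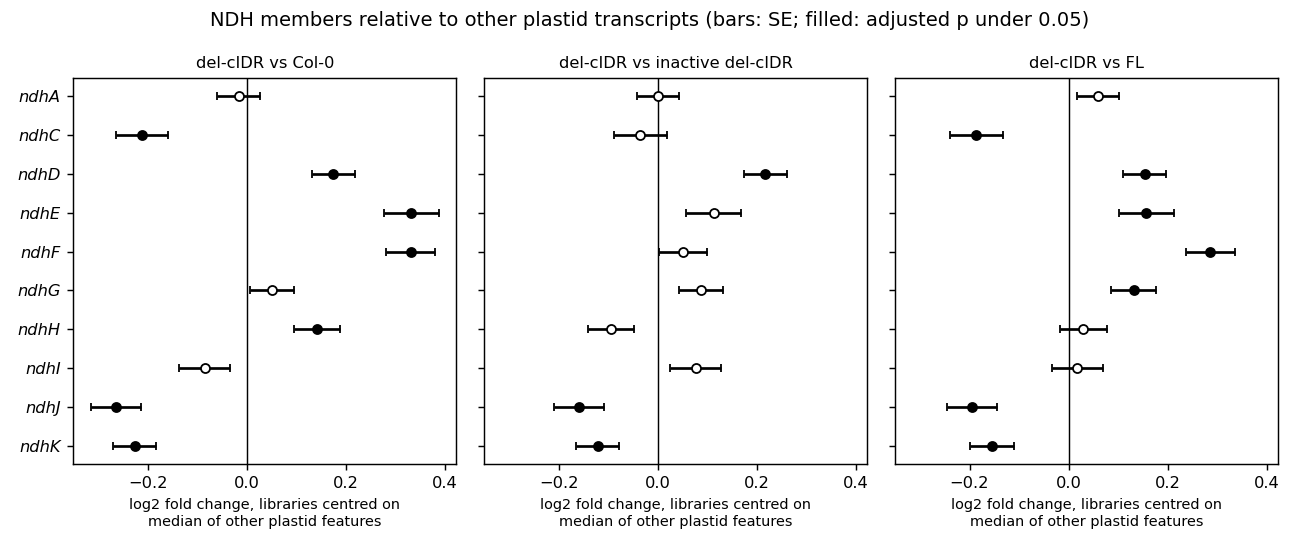
Log2 fold change (horizontal axis) of the 10 members after each library was centred on the median of the other plastid features, in del-cIDR against Col-0, inactive del-cIDR and FL. Points are estimates, bars are SE and filled points passed the adjusted threshold of 0.05; ndhE and ndhF lie to the right of 0 and ndhJ, ndhK and ndhC to the left in the comparison with Col-0.

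The full-length line was compared with Col-0 in the same way. There 9 of 10 members fell and none rose in FL, with a median log2 fold change of -0.31, while 1.47% of all features were called lower and 75.5% higher, with a median of 0.67. The other plastid features had a median of -0.19, with 68 called lower and 10 higher. The log2 fold change was -0.36 ± 0.05 for ndhI (SE, limma, adjusted p = 2.17e-08) and -0.34 ± 0.04 for both ndhA and ndhG. The value for ndhE was -0.088 ± 0.06 and did not pass (SE, limma, adjusted p = 0.169). Its libraries did not overlap with those of Col-0, but the share of all features without overlap was not computed. Relative to the other plastid features no member was called lower, and ndhE and ndhH were higher, by 0.18 and 0.11. After median-centring of all features all 10 were called lower, with log2 fold changes of -1.21 to -0.93. The share of all features called lower on that scale is not given. Without the variance trend 7 were called, with ndhE, ndhF and ndhH not passing.

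The lines with the H204A enzyme showed smaller differences from Col-0. In inactive del-cIDR 7 of 10 members rose, with 32.4% of all features called higher and 7.84% lower, and the median was 0.17 over the members, 0.26 over the other plastid features and 0.31 over all features. The highest log2 fold changes were 0.49 ± 0.05 for ndhF, 0.45 ± 0.05 for ndhH and 0.43 ± 0.06 for ndhE (SE, limma, adjusted p = 3.23e-12, 1.59e-11 and 2.10e-08). The values for ndhC, ndhI and ndhJ were 0.04 to 0.11 and did not pass. Without a trend in the prior variance only these 3 highest, ndhF, ndhH and ndhE, remained called. After median-centring of all features 7 members were called lower and none higher, so the direction in this line depends on the scale.

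In inactive FL 4 of 10 members fell, with 3.12% of all features called lower and 16.9% higher, and the median was -0.095 over the members, -0.04 over the other plastid features and 0.22 over all features. The 4 were ndhJ at -0.20 ± 0.05, ndhC at -0.17 ± 0.06, ndhK at -0.12 ± 0.04 and ndhD at -0.12 ± 0.04 (SE, limma, adjusted p = 0.00186, 0.0282, 0.0311 and 0.0395). All 3 genes of the ndhC-ndhK-ndhJ unit were among them. None of the 10 was called without the variance trend, and 1 was called when either Col-0 library was left out. Without inactive FL replicate 1, 1 member was called higher and none lower.

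**Figure D3:**
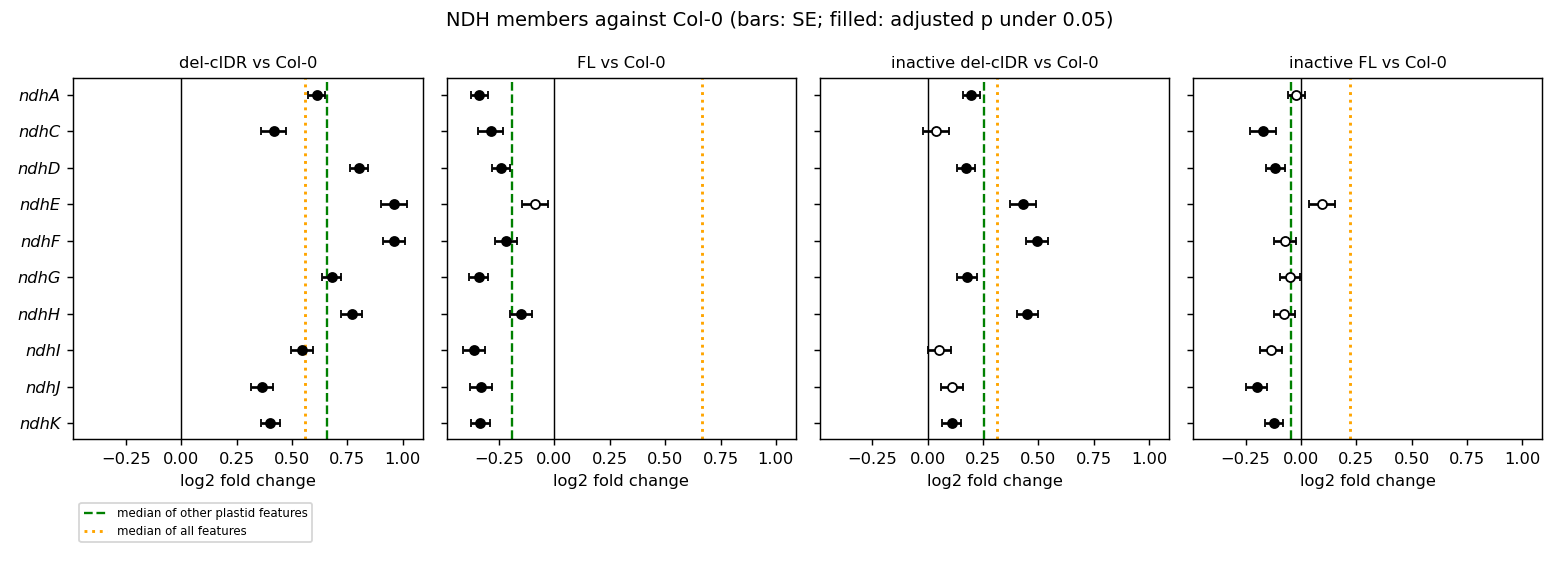
Log2 fold change (horizontal axis) of each NDH transcript in the 4 ALKBH5 lines against Col-0. Points are estimates with SE bars, filled where the adjusted p was under 0.05; the dashed line is the median of the 122 other plastid features and the dotted line the median of all features, which lie close together for del-cIDR (0.66 and 0.56) and apart for FL (-0.19 and 0.67).

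The active and inactive forms were compared to ask what goes with demethylase activity. In del-cIDR against inactive del-cIDR all 10 members rose, where 28.7% of all features were called higher and 2.76% lower. The median log2 fold change was 0.44 over the members, 0.31 over the other plastid features and 0.27 over all features. It reached 0.63 ± 0.04 for ndhD (SE, limma, adjusted p = 1.11e-18) and was lowest for ndhJ, at 0.26 ± 0.05 (SE, limma, adjusted p = 2.98e-05). Relative to the other plastid features only ndhD was higher, by 0.22, while ndhJ and ndhK were lower, at -0.16 and -0.12. Median-centring of all features left 5 members called, all higher. With no variance trend 9 were called, and ndhJ did not pass.

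In FL against inactive FL 8 of 10 members fell, where 0.751% of all features were called lower and 58.1% higher. The medians were -0.16 over the members, -0.10 over the other plastid features and 0.43 over all features. The lowest log2 fold changes were -0.32 ± 0.04 for ndhA and -0.29 ± 0.04 for ndhG (SE, limma, adjusted p = 2.31e-09 and 4.13e-07). Those of ndhC and ndhH were -0.12 and -0.077 and did not pass. After median-centring of all features all 10 were called lower, at -0.86 to -0.62. Only ndhA and ndhG were called without the variance trend, 5 members were called without FL replicate 2, and 4 without inactive FL replicate 2.

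The difference between these 2 activity effects was tested directly as an interaction. It was positive and called in all 10 members, where 6.15% of all features were called higher and 13.9% lower. The median was 0.66 over the members, 0.40 over the other plastid features and -0.19 over all features. The interaction was 0.80 ± 0.06 for ndhG and 0.76 ± 0.06 for ndhD, against 0.39 ± 0.07 for ndhJ and 0.40 ± 0.07 for ndhH (SE, limma, adjusted p = 2.29e-15, 1.44e-15, 2.12e-05 and 8.27e-06). Relative to the other plastid features it was called in 5 members, ndhG, ndhD, ndhA, ndhI and ndhE, all of the ndhH to ndhD unit and all positive, at 0.24 to 0.32. Without the variance trend it was called in 7 members.

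Set against each other, the 2 active lines gave the largest median NDH difference of the 8 pairwise comparisons on the scale of the deposited values. All 10 members rose in del-cIDR against FL, where 10.6% of all features were called higher and 20.0% lower. The median was 0.94 over the members, 0.84 over the other plastid features, of which 114 were called higher and 0 lower, and -0.14 over all features. The log2 fold change was 1.18 ± 0.05 for ndhF, 1.05 ± 0.06 for ndhE and 1.04 ± 0.04 for ndhD (SE, limma, adjusted p = 9.12e-27, 2.27e-21 and 7.45e-28). Without the variance trend the SE of these was 0.091, 0.093 and 0.086 (limma, adjusted p = 0.00145, 0.00175 and 0.00157). It was 0.70 to 0.74 for ndhJ, ndhC and ndhK. The rise of all 10 was also called after median-centring of all features, and centring on the other plastid features gave 4 higher (ndhF, ndhE, ndhD and ndhG) and 3 lower (ndhJ, ndhC and ndhK). On that last scale the members' median was 0.04, against -0.16 between the inactive lines, so the ranking does not hold there.

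The 2 inactive lines were compared as an addition made after seeing the data. All 10 members rose in inactive del-cIDR against inactive FL, where 11.6% of all features were called higher and 8.33% lower, with medians of 0.26 over the members, 0.36 over the other plastid features and 0.06 over all features. The log2 fold change was 0.57 ± 0.05 for ndhF and 0.52 ± 0.05 for ndhH (SE, limma, adjusted p = 7.00e-14 and 2.20e-13). These were the only members called without the variance trend. Relative to the other plastid features 6 members were lower and ndhF alone was higher.

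The nuclear-encoded NDH subunits moved with the plastid-encoded ones in some comparisons and against them in others. In del-cIDR against inactive del-cIDR, 10 of 17 tested nuclear subunit genes fell and none rose, with a median of -0.35, while all 10 plastid members rose. There 2.76% of all features were called lower and 28.7% higher. PnsB1, a subunit of the complex's subcomplex B, had 208 and 215 in del-cIDR and 478 and 529 in inactive del-cIDR, a log2 fold change of -1.22 ± 0.12 (SE, limma, adjusted p = 3.72e-12). PnsB5, of the same subcomplex, had 89.9 and 76.2 in del-cIDR and 155 and 145 in inactive del-cIDR, a log2 fold change of -0.81 ± 0.21 (SE, limma, adjusted p = 0.00196). The values for PnsB4 and PnsL5 were 0.05 and 0.03 and did not pass. With median-centring of all features 12 nuclear subunit genes were lower and 0 higher in this comparison, so the opposite directions were present on both scales. Without the variance trend 6 were lower and 0 higher.

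Against Col-0, nuclear subunit genes rose most in inactive del-cIDR. There 14 of 17 rose and 0 fell, with a median of 0.69, where 32.4% of all features were called higher and 7.84% lower. PnsB1 and PnsB5 had log2 fold changes of 1.90 ± 0.12 and 1.87 ± 0.21 (SE, limma, adjusted p = 1.53e-19 and 1.06e-10). Del-cIDR had 9 higher and 2 lower with a median of 0.36, beside 65.5% of all features called higher and 1.85% lower. FL had 2 higher and 0 lower, beside 75.5% of all features called higher and 1.47% lower. Inactive FL had 0 called by limma, with 1 at an unadjusted p under 0.05, beside 16.9% of all features called higher and 3.12% lower. After median-centring these counts became 8 higher and 1 lower in inactive del-cIDR, 0 and 6 in del-cIDR, 0 and 16 in FL, and 0 and 7 in inactive FL, so of these only the rise in inactive del-cIDR kept its direction. The interaction was called lower in 8 of 17 and higher in 0, and without the variance trend in 5 and 0. Over all features 13.9% were called lower and 6.15% higher in it. After median-centring it was called lower in 3 of 17 and higher in 0, with a median of -0.19 against -0.50 before. In inactive del-cIDR against inactive FL 12 rose and 0 fell, with a median of 0.61, where 11.6% of all features were called higher and 8.33% lower. In del-cIDR against FL 6 rose and 2 fell, with a median of 0.24, where 10.6% were called higher and 20.0% lower. That last count became 3 and 0 without the variance trend, and 12 and 0 after median-centring.

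**Figure D4:**
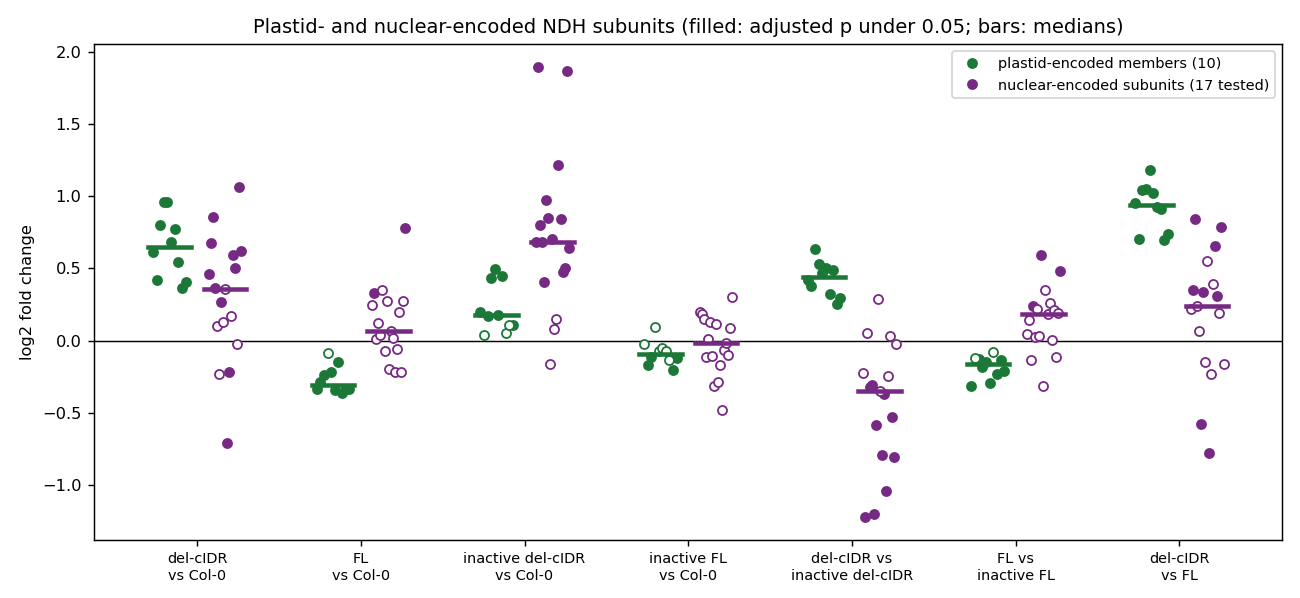
Log2 fold change (vertical axis) of the 10 plastid-encoded members and of 17 nuclear-encoded NDH subunit genes in 7 comparisons. Each point is a gene, filled where the adjusted p was under 0.05, and bars are medians; in del-cIDR against inactive del-cIDR the medians are 0.44 and -0.35.

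Other genes of the pathway were described from lists. Of 17 assembly factors, photosystem I linkers and plastid RNA factors, 8 rose and 0 fell in del-cIDR against Col-0, where 65.5% of all features were called higher. Against inactive del-cIDR 4 rose and 4 fell, beside 28.7% of all features called higher and 2.76% lower. That count became 1 higher and 4 lower without the variance trend, and 0 and 5 after median-centring. Lhca6, an antenna protein that links the NDH complex to photosystem I, had a log2 fold change of 0.86 ± 0.16 against Col-0 and -0.94 ± 0.16 against inactive del-cIDR (SE, limma, adjusted p = 1.48e-05 and 5.99e-06). CRR21, an editing factor for the ndhD transcript, had 0.70 ± 0.14 against Col-0, and PGR3, a pentatricopeptide repeat protein that acts on plastid RNAs, had 0.41 ± 0.08 (SE, limma, adjusted p = 2.28e-05 and 1.21e-05). NDF5, needed for NDH activity, had 0.42 ± 0.09 (SE, limma, adjusted p = 6.64e-05). After median-centring 0 of the 17 were higher and 4 lower in del-cIDR against Col-0.

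On the PGR5 route, PGRL1A, listed as PGR5-LIKE A, rose in del-cIDR against Col-0 by 0.79 ± 0.07 and fell against inactive del-cIDR, at -0.56 ± 0.07 (SE, limma, adjusted p = 4.65e-14 and 3.45e-09). After median-centring 0 of the 3 genes of this route were higher and 2 lower in del-cIDR against Col-0, and 0 higher and 2 lower against inactive del-cIDR. PGR5 itself and PGRL1B had 0.04 and 0.15 in del-cIDR against Col-0 and did not pass. Of 7 genes for sigma factors and the phage-type polymerase of plastids, 4 rose in del-cIDR against Col-0 and 0 fell, namely SIGA at 0.45 ± 0.07, SIG4 at 0.41 ± 0.09, SIG2 at 0.36 ± 0.07 and SIGF at 0.35 ± 0.08 (SE, limma, adjusted p = 1.22e-07, 0.000145, 1.85e-05 and 9.80e-05). The 4 of 7 stood beside 65.5% of all features called higher, and after median-centring 0 of the 7 were higher and 5 lower. In FL against Col-0, where 9 plastid members fell, 4 of the 7 rose and 0 fell, beside 75.5% of all features called higher. With no variance trend 3 rose, and after median-centring 7 were lower.

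Likeness of pattern was measured as the root-mean-square difference of centred log2 values over the 10 input libraries from the mean pattern of the members, among 15297 features at or above the median level. The most alike was ATCG00800, with a difference of 0.0139, followed by LTP5, a nuclear lipid transfer protein gene, at 0.0444. The next were ATCG00720 at 0.0464, ATCG00790 at 0.0548, ATCG00540 at 0.0566 and ATCG00480 at 0.0566, all plastid features that no table used here names. Members themselves ranged from 0.0493 for ndhA to 0.135 for ndhF, and 40 of the 50 most alike features were plastid-encoded.

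The feature ATCG01060, whose identifier falls between those of ndhD and ndhE, had 4438 and 4525 in del-cIDR and 2344 and 2357 in FL, a log2 fold change of 0.93 ± 0.05 (SE, limma, adjusted p = 7.02e-23). The features ATCG00890 and ATCG01250 were taken as the 2 copies of ndhB, although no gene table used here names them. Their values did not move alike. How reads that match both were counted is not given in the sources used here, so whether the copies differ was not tested. In del-cIDR against Col-0, ATCG00890 was higher by 0.50 ± 0.06 and ATCG01250 lower, at -0.21 ± 0.05 (SE, limma, adjusted p = 1.03e-09 and 0.00121). Without the variance trend the call for ATCG01250 there was lost (limma, adjusted p = 0.0835), and after median-centring ATCG00890 had -0.11 and was not called. Against Col-0, ATCG01250 was also lower in FL at -0.79 ± 0.05, in inactive del-cIDR at -0.60 ± 0.05 and in inactive FL at -0.91 ± 0.05 (SE, limma, adjusted p = 5.09e-18, 1.23e-13 and 3.60e-20). ATCG00890 had -0.14 ± 0.06 in FL, -0.049 ± 0.06 in inactive del-cIDR and -0.0075 ± 0.06 in inactive FL, of which the FL value passed (SE, limma, adjusted p = 0.0309, 0.542 and 0.946).

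The m6A table gave no value for the members. It holds 2291 peaks, of which 23 lie on the plastid genome, and none of the 23 overlapped any of the 10 genes. The differences in signal above therefore have no m6A measurement of these genes beside them.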

How the data were processed

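Chromatin-associated RNA had been sequenced as input and after m6A immunoprecipitation. Per the submitters' processing notes reads were handled with featureCounts, bedtools, HISAT2, fastp, MACS2, Picard and SAMtools (no version given) on TAIR10. The deposited expression values are a normalized signal per feature; their ERCC sums are nearly equal and they are not whole counts, so the depth behind a value cannot be stated and intervals for counting error are left out; depth is unknown. The deposited m6A values are a ratio per peak, scaled to an m6A spike-in. Both tables held 0 columns of other samples.

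Libraries were grouped by the labelled genotype. Spike-ins were set aside and 30613 features were analysed as log2(signal + 6.94), the pseudocount being the 5th percentile of non-zero values; features had to reach it in at least 2 libraries, which removed 0. Fold changes are therefore on the log2(value + pseudocount) scale. Group means for the 5 genotypes were fitted to the 10 input libraries with limma (version 3.58.1; R 4.3.3), using a prior variance that follows mean level; tests were 2-sided and p-values were adjusted over all features (Benjamini-Hochberg); calls are at adjusted p under 0.05. With 5 residual degrees of freedom, p-values lean on a prior worth 47.3 degrees of freedom with the trend and 2.21 without it. An exact permutation test of 2 against 2 libraries cannot go below 0.333. The fit was tested on simulated data, where false calls exceeded the nominal share, most of them among abundant features, so the members' counts without the trend are given where they differ, and those of the other lists where they differ by over 1.5 times or lose a call that is named.

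The members and lists were chosen with earlier results of these data known. All 10 members are named, with the 4 genes of smallest p in del-cIDR against Col-0 of each list, the 6 most alike features and 3 further plastid features. These last were taken as psaC (ATCG01060) and the copies of ndhB (ATCG00890 and ATCG01250). One of 18 nuclear subunit genes, NdhL, was not analysed here. Lists of other plastid-encoded genes were not used, because the RefSeq gene table (TAIR10.1) matched 0 of 132 plastid identifiers; it matched 26417 features, and its coordinates are not printed. Alternatives covered pseudocount, filter, variance trend, scaling, replicate block, groups in the fit and each library left out.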

Additional observations from a re-analysis of the deposited data

Results flagged for a closer look

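The activity effect of the del-cIDR form minus that of the FL form (interaction, log2) passed the test in all 10 members, where 6.15% of all features were called higher and 13.9% lower. Its values were 0.80 for ndhG, 0.76 for ndhD, 0.73 for ndhA, 0.72 for ndhI, 0.71 for ndhE, 0.61 for ndhF, 0.51 for ndhK, 0.50 for ndhC, 0.40 for ndhH and 0.39 for ndhJ. Without the variance trend it was called in 7 of 10, with ndhC, ndhH and ndhJ lost. Of the 122 other plastid features 72 were called higher and 6 lower, with a median of 0.40. Relative to them the interaction stayed called in ndhG, ndhD, ndhA, ndhI and ndhE, while ndhJ and ndhH turned to -0.086 and -0.075. Each activity effect compares 1 active line with 1 inactive line, so line and activity cannot be told apart.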

How the results depend on the processing

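Pseudocount, a filter to above-median features and the replicate block moved no count of called members past 1.5 times; with the replicate block 8 were called in inactive del-cIDR against Col-0, and counts of called members elsewhere stayed within that bound. The replicate numbers did not pair libraries (correlation of deviations -0.043 to 0.105 over 10 pairs of groups, 1 above 0.1). Without a variance trend the counts were 7 in FL against Col-0, 9 in del-cIDR against inactive del-cIDR, 7 in the interaction, 3 in inactive del-cIDR and 0 in inactive FL against Col-0, 2 in FL against inactive FL and 2 between the inactive lines. Scaling to the unmodified spike-in gave 1 in inactive FL against Col-0 and 4 in FL against inactive FL, and fitting the groups of the contrast alone gave 2 in inactive FL against Col-0. Leaving out 1 library gave 10 throughout in del-cIDR against Col-0, FL and inactive del-cIDR and in the interaction, 8 to 9 in FL against Col-0, 6 to 8 in inactive del-cIDR against Col-0, 8 to 10 between the inactive lines, 4 to 10 in FL against inactive FL and 1 to 6 in inactive FL against Col-0, where the 1 without inactive FL replicate 1 was higher.

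Median-centring of all features gave 6 in del-cIDR against Col-0, 10 lower in FL against Col-0 and against inactive FL, 7 lower in inactive del-cIDR, 10 in inactive FL, 5 in del-cIDR against inactive del-cIDR and 5 between the inactive lines. Its turned directions were, in del-cIDR against Col-0, ndhJ -0.25, ndhK -0.21, ndhC -0.20, ndhI -0.070 and ndhA -0.0025; in inactive del-cIDR against Col-0, ndhC -0.34, ndhI -0.33, ndhJ -0.27, ndhK -0.27, ndhD -0.21, ndhG -0.20 and ndhA -0.18; and in inactive FL against Col-0, ndhE -0.20.

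Centring on other plastid features gave 2 higher in FL, 5 higher in inactive FL, 3 in del-cIDR against inactive del-cIDR, 5 in FL against inactive FL, 5 in the interaction and 7 between the inactive lines. Its turned directions in del-cIDR against Col-0 were ndhJ -0.26, ndhK -0.23, ndhC -0.21, ndhI -0.084 and ndhA -0.017. In FL they were ndhE 0.18, ndhH 0.11, ndhF 0.045 and ndhD 0.022. In inactive del-cIDR they were ndhC -0.18, ndhI -0.16, ndhK -0.10, ndhJ -0.10, ndhD -0.042, ndhG -0.036 and ndhA -0.017. In inactive FL they were ndhA 0.18, ndhG 0.16, ndhF 0.13, ndhH 0.13, ndhD 0.090, ndhK 0.083, ndhI 0.071, ndhC 0.034 and ndhJ 0.0047. Among these, ndhJ in inactive del-cIDR and ndhI in inactive FL passed in neither fit. In del-cIDR against inactive del-cIDR they were ndhJ -0.16, ndhK -0.12, ndhH -0.094 and ndhC -0.035. In del-cIDR against FL they were ndhJ -0.19, ndhC -0.19 and ndhK -0.15, and in the interaction ndhJ -0.086 and ndhH -0.075. Between the inactive lines they were ndhI -0.23, ndhC -0.21, ndhA -0.20, ndhG -0.19, ndhK -0.19, ndhD -0.13, ndhJ -0.11 and ndhE -0.081. These scalings subtract the shift of the set they are centred on. Shares of all features called are not given for these or the other alternative settings. With no m6A peak on a member, at any overlap of at least 1 base, the alternatives planned for m6A gave no value. Unknown depth and 2 libraries a group limit the precision.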
